A study of Homo sapiens with 6 samples.

Results

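The MAGE family is defined by the MAGE homology domain, a pair of winged-helix folds that many of its members use to bind RING-type ubiquitin ligases. The members were chosen by gene symbol, MAGE followed by a subfamily letter, with NDN and NSMCE3 added. The rule itself uses no measured value, but it was set with earlier results of these data known. The rule found 30 probe sets of 30 genes among the 21448 probe sets of the array, and all 30 symbols were the same in a current gene table. Of these, 21 belonged to the germline-restricted subfamilies MAGEA (10 genes), MAGEB (8 genes) and MAGEC (3 genes), and 9 to the widely expressed subfamilies MAGED, MAGEE, MAGEF, MAGEH and MAGEL2 with NDN. These class names follow the subfamily and not the signal measured here. A mean above the median of the arrays was found for 9 of the 21 and for 4 of the 9. Chromosome X carried 27 of the members, chromosome 15 carried 2 (NDN and MAGEL2) and chromosome 3 carried 1 (MAGEF1). A further 7 coding genes with a fitting symbol, MAGEA12, MAGEA2B, MAGEB1, MAGEB4, MAGEB6B, MAGED4 and NSMCE3, were not analysed here.

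The study measured mRNA in K562, an established erythroleukaemia line labelled as bone marrow, on single-colour arrays. A control vector was carried by the cells of 3 arrays and a vector overexpressing the microRNA miR-543 by those of the other 3. The vector backbone and its promoter, the time after transfer, and whether the cells were a pool or 1 clone are not given in the sources used here. Nothing in the labels ties replicates to separate cultures. Each p-value therefore reflects only how these arrays varied, and that variation may be technical. Values are log2 signals, on which a difference of 1 is a doubling, and a change is the miR-543 mean minus the control mean. A call means a limma adjusted p under 0.05, with the adjustment over all 21448 probe sets.

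Array medians lay between 5.99 and 6.01, and 122 probe sets were called, 28 higher and 94 lower. Of the 10 erythroid markers listed 7 were measured, and 6 of these, among them GATA1 and the embryonic globins HBE1 and HBZ, lay above the array medians on every array. Of 8 epithelial or kidney line markers 5 also lay above them on every array, including EPCAM and KRT8, as did 2 of 4 lymphoid, 1 of 3 monocyte and 1 of 5 fibroblast markers. None of these lists held a call. At an unadjusted p under 0.05 there were 2 erythroid genes (KLF1 and TAL1, log2 changes 0.66 and 0.41) and 1 lymphoid gene (CD3D, 0.64). The others had 0, beside 10.6% of all probe sets with such a p. The 7 germ cell markers, DDX4, DAZL and SYCP3 among them, had means between 2.76 and 5.58, with none above the medians on all arrays. Summed over the list, their log2 signals ran from 26.7 to 26.9 with the control vector and from 26.0 to 26.9 with the miR-543 vector. In such bulk samples fewer cells with a transcript and less of it in each cell cannot be told apart.

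Genes of MAGEA, MAGEB and MAGEC are normally active in germ cells of the testis and silenced in other tissues by methylation of CpG sites in their promoters, and tumours that lose this methylation express them again as cancer-testis antigens. Known activators of such promoters include ETS family factors, which bind a GGAA or GGAT core. The widely expressed members are older relatives of these genes. NDN and MAGEL2 are imprinted and active from the paternal chromosome. MicroRNAs lower mRNAs that pair with their seed, the bases near the 5′ end.

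The mature miR-543 sequence is shown because it is the agent compared, with its seed (bases 2 to 8) in capitals. It lies at chr14:101032033-101032054 on the plus strand of GRCh38.p14, and 1 mature microRNA in the RefSeq table, miR-543 itself, had this seed.
hsa-miR-543: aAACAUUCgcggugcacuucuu
The messages of the members were not searched for pairing with this seed.

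RefSeq promoter windows of GRCh38.p14, which run from 250 bases before a start to 50 after it, were matched for 26 of the 30 members. Windows for MAGEA1, MAGEA10, MAGEB17 and MAGEH1 were not used here. The 5 windows below were chosen after the values were seen, as examples with and without ETS-like letters. They are not all typical of their subfamilies, for which the counts after the sequences stand. Capitals mark each match, on either strand, to CCGGAA or CCGGAT, which hold an ETS core beside a CpG, or to GGATGTGA, and the matches can overlap where CCGGAT runs into GTGA. The first window, of MAGEA6 at chrX:152769640-152769939 (minus strand), was the same in 300 of 300 bases as that of MAGEA3. That of MAGEA9 at chrX:149781680-149781979 (plus strand) was the same in 300 of 300 bases as that of MAGEA9B. The others are MAGEC1 at chrX:141903644-141903943 (plus strand), the upstream one of 2 windows of MAGEB16 at chrX:35798092-35798391 (plus strand) and NDN at chr15:23687256-23687555 (minus strand). The MAGEB16 window not shown differed, with 1 match to CCGGAA and 0 to CCGGAT or GGATGTGA. Which of its 2 starts is used in these cells was not examined.
MAGEA6: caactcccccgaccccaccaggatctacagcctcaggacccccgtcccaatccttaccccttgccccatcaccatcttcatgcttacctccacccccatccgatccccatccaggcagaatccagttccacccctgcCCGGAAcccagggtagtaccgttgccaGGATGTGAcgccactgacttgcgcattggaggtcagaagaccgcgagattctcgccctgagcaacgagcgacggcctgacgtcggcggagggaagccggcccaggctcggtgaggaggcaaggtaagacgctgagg
MAGEA9: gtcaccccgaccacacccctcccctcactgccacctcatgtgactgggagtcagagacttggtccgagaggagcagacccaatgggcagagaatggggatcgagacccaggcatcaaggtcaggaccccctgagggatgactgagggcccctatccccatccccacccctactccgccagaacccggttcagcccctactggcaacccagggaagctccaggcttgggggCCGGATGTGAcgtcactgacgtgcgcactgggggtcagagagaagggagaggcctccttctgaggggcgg
MAGEC1: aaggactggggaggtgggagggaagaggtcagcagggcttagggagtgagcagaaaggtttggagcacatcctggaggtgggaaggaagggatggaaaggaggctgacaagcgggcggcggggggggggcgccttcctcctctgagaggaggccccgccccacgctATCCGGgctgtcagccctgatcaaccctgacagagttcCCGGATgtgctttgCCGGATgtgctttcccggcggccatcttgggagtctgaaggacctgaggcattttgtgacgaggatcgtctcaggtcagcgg
MAGEB16: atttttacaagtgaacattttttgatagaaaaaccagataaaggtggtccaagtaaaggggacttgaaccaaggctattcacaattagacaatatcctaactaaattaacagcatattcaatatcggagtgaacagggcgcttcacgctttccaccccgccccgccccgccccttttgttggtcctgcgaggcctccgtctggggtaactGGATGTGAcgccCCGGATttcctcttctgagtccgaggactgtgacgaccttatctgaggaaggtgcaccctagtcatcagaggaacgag
NDN: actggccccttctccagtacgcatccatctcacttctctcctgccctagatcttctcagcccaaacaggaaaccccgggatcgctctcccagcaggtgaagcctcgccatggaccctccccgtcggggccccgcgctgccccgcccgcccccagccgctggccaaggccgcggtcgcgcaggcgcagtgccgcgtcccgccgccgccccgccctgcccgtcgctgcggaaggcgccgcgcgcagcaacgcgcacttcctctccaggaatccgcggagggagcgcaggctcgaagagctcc
The letters CCGGAT occurred in 11 of 13 windows of the 8 MAGEA genes matched, in 3 of 8 MAGEB windows and in 2 of 3 MAGEC windows, beside 7.12% of all 35114 promoter windows. CCGGAA occurred in 2 of 13 MAGEA, 2 of 8 MAGEB and 0 of 3 MAGEC windows, beside 17.2% of all windows. GGATGTGA was picked after the MAGEA windows had been read, so its count in them was favoured by that choice. It occurred in all 13 MAGEA windows, in 2 of 8 MAGEB windows and in 0 of 3 MAGEC windows, beside 1.16% of all windows. Among the 11 windows of widely expressed members CCGGAA occurred in 3, CCGGAT in 0 and GGATGTGA in 0. Germline windows held a median of 12.5 CpG sites, widely expressed windows 12 and all windows 14. The NDN window had 35, the most of the widely expressed windows. Some windows of a gene overlap and several MAGEA genes are near copies of each other, so these counts are not independent, and a match describes letters only.

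Over the whole family, 1 of the 30 members was called, MAGEA1, which fell, beside 0.569% of all probe sets called in either direction and 0.438% called lower. Unadjusted p-values under 0.05 were found for 8 members, MAGEA1, MAGEA9, MAGEA9B, MAGEB2, MAGEB16, MAGEC1, MAGED1 and NDN, all with negative changes, beside 5.21% of all probe sets with such a p and a negative change and 10.6% with such a p in either direction. The 3 miR-543 arrays were entirely below the 3 control arrays for 8 members and entirely above them for 0, beside 7.5% and 7.89% of all probe sets. Chromosome X, which carries most members, had 685 other named probe sets. Of these 62 had an unadjusted p under 0.05 with a negative change and 30 with a positive one. Their miR-543 arrays were entirely below for 73 and entirely above for 49, and 49.8% of their changes were negative. Changes were negative for 15 of 21 germline members (median -0.16) and for 5 of 9 widely expressed members (median -0.10). Over all probe sets 47.7% of changes were negative and the median was 0.01. These are counts and not tests, and pairs such as MAGEA9 and MAGEA9B may share probes. Without control replicate 2 the median of the widely expressed members was 0.04, and without control replicate 3 it was -0.24. The germline median remained negative in each alternative, between -0.29 and -0.11. With 1 array left out, the count of negative germline changes was lowest without control replicate 1 (12 of 21). It was highest without miR-543 replicate 2 (18 of 21).

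**Figure D1:**
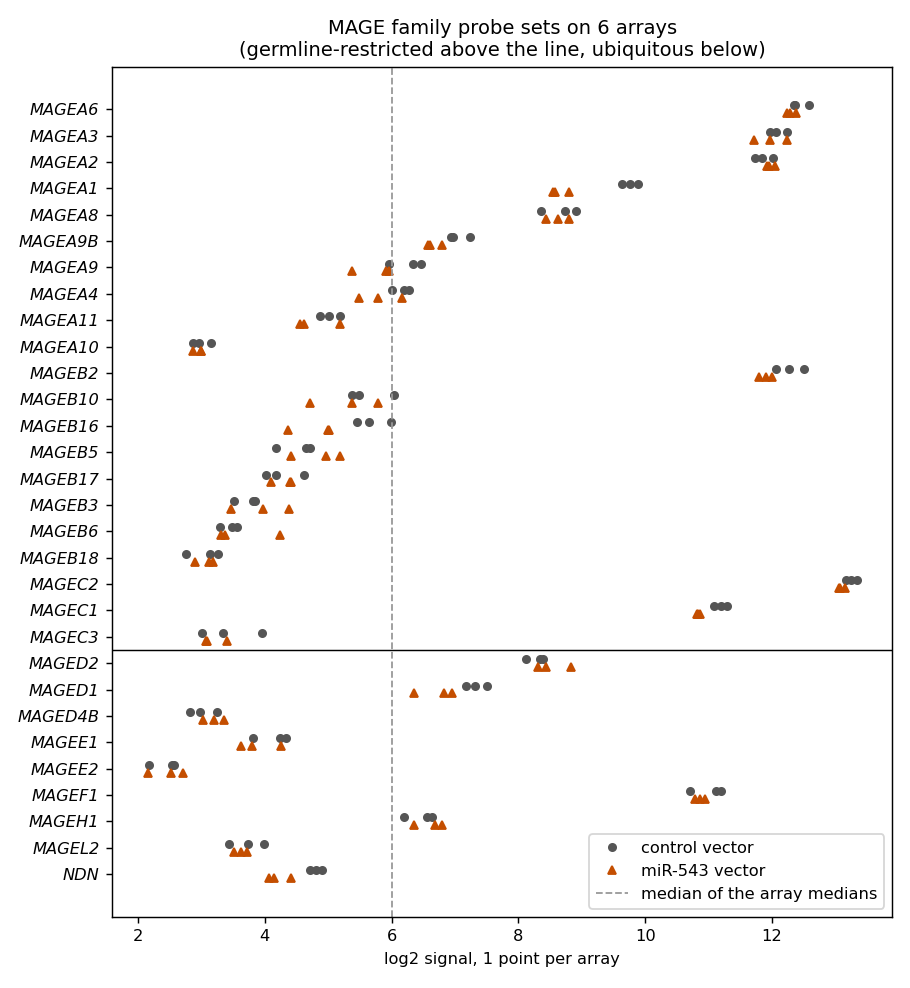
Log2 signal (horizontal axis) of each of the 30 MAGE family probe sets, 1 point per array, circles for the 3 control vector arrays and triangles for the 3 miR-543 vector arrays, ordered by mean signal within each subfamily. MAGEA1 shows separate groups, 9.64 to 9.88 with the control vector and 8.55 to 8.79 with the miR-543 vector.

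MAGEA1 encodes the first human tumour antigen found to be recognised by cytotoxic T cells. Its probe set (TC0X00008767.hg.1, chromosome X) read 9.88, 9.64 and 9.76 with the control vector and 8.57, 8.55 and 8.79 with the miR-543 vector. The groups were separated by more than their own spread. Means were 9.76 ± 0.12 and 8.64 ± 0.13 (SD, n = 3), so MAGEA1 fell by 1.12 on the log2 scale (SE 0.14, 95% interval -1.44 to -0.80, limma adjusted p = 0.00795). That is a 2.18-fold difference, or 45.9% of the control level. Without control replicate 1 the call was lost (limma adjusted p = 0.0574, log2 change -1.06), as it was when the test was set against a log2 change of 0.5 (limma adjusted p = 0.327). Over its 15 alternatives the adjusted p ran from 5.24e-04 to 0.327, and MAGEA1 was called in 13 of them. These alternatives reuse the same arrays and are not independent. Where the call was kept with 1 array left out, the limma adjusted p ran from 0.0207 (without miR-543 replicate 3) to 0.0481 (without control replicate 3).

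MAGEA3 and MAGEA6 encode near-identical proteins that join the ubiquitin ligase TRIM28 and direct it to the kinase subunit PRKAA1, and probes may read both. MAGEA6 read 12.37, 12.59 and 12.34 with the control vector and 12.24, 12.29 and 12.38 with the miR-543 vector. MAGEA3 read 12.06, 12.24 and 11.97, and then 12.24, 11.71 and 11.97. The groups overlapped for both genes. Log2 changes were -0.13 for MAGEA6 (95% interval -0.44 to 0.18) and -0.12 for MAGEA3 (-0.49 to 0.25). MAGEA2, another partner of TRIM28, with the near copy MAGEA2B, read 12.01, 11.84 and 11.73, and then 11.96, 11.92 and 12.05. Its groups overlapped too, and it was the 1 MAGEA gene with a positive log2 change, 0.12 (95% interval -0.19 to 0.43).

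MAGEA9 and MAGEA9B are duplicate genes whose probes may not tell them apart. MAGEA9B read 6.94, 6.97 and 7.23 with the control vector and 6.60, 6.79 and 6.57 with the miR-543 vector, without overlap. MAGEA9 read 6.46, 6.33 and 5.96, and then 5.91, 5.96 and 5.38, with 1 control array level with a miR-543 array. Their log2 changes were -0.39 (SE 0.15, limma adjusted p = 0.386) and -0.50 (SE 0.20, limma adjusted p = 0.408), and neither was called. MAGEA8 read 8.91, 8.36 and 8.73, and then 8.62, 8.80 and 8.43, overlapping groups with a log2 change of -0.05 (95% interval -0.44 to 0.34). The remaining MAGEA members, MAGEA4, MAGEA10 and MAGEA11, had log2 changes of -0.35, -0.04 and -0.23. MAGEA11, a coactivator of the androgen receptor, had means of 5.02 and 4.79, and MAGEA10 means of 2.99 and 2.95, both below the array medians.

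The change of MAGEA1 was set against that of each of the 9 other MAGEA members, array by array. The differences in log2 change ran from -1.24 against MAGEA2 to -0.62 against MAGEA9, and against MAGEA6 the difference was -0.99. For 8 of the 9 the per-array differences of the 2 groups did not overlap. Each of these 8 had a two-sided exact permutation p of 0.1, the smallest that 3 arrays against 3 allow, and MAGEA9 had 0.2. After Benjamini-Hochberg adjustment over the 9 comparisons the smallest exact p was 0.112. MAGEA1 was the called member and had the largest change of the family, and its values enter all 9 comparisons. Negative differences and separate groups were therefore favoured by the choice of gene, and the 9 are not independent. These exact tests also cannot fall under 0.05 with so few arrays. They say nothing on whether MAGEA1 differed from its relatives, and no other test of the difference was run.

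**Figure D2:**
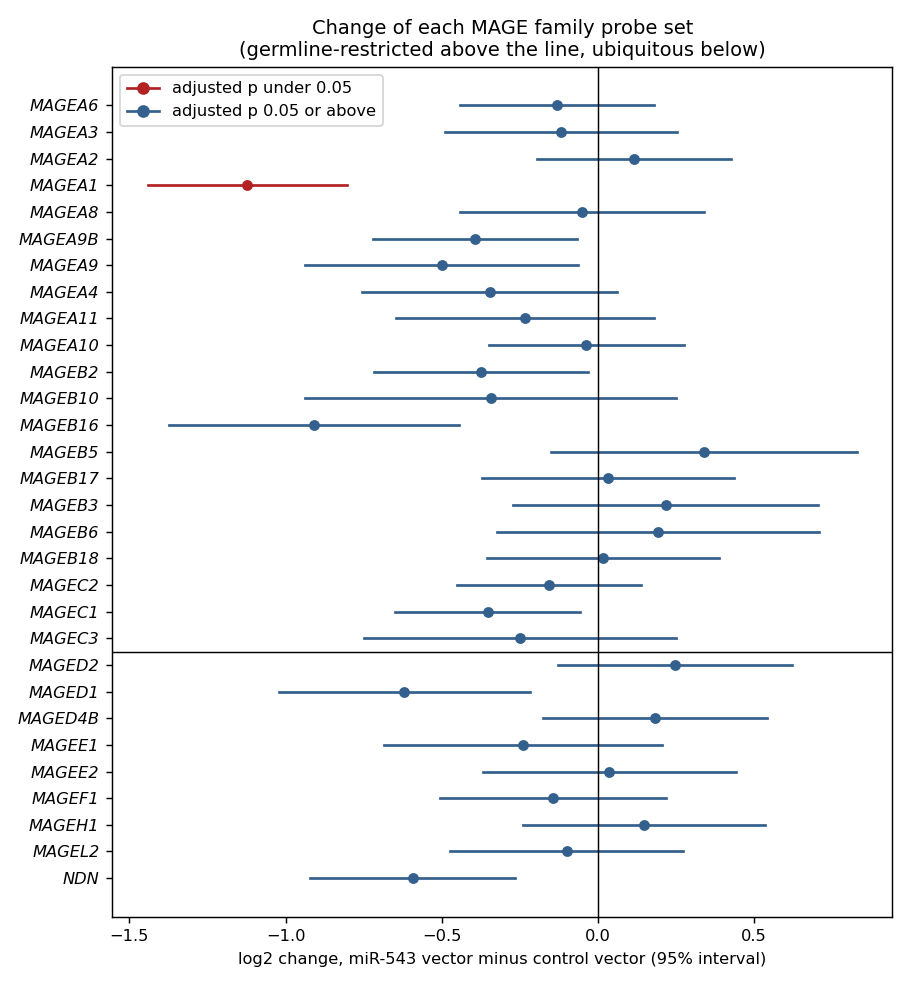
Log2 change, miR-543 vector minus control vector, of each MAGE family probe set with its 95% interval from limma, germline-restricted members above the horizontal line and widely expressed members below it. The interval of MAGEA1, -1.44 to -0.80, is that of the called member, and MAGEB16, MAGED1 and NDN have the next largest changes, -0.91, -0.62 and -0.59.

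In gene order MAGEA1 is the last of the 10 MAGEA genes measured on chromosome X. The 6 named probe sets nearest to it on each side, from CETN2 to DUSP9, had log2 changes between -0.35 (PNMA5) and 0.38 (PNMA3), and none was called, with limma adjusted p-values from 0.438 to 0.995. CSAG1 and CSAG3, cancer-testis genes interspersed with the MAGEA genes, lay above the array medians on every array. CSAG1 averaged 9.50 ± 0.16 and 9.53 ± 0.23, and CSAG3 9.86 ± 0.31 and 9.95 ± 0.095 (SD, n = 3). Their log2 changes were 0.03 and 0.09 (limma adjusted p = 0.97 and 0.904). Of the 712 named probe sets of chromosome X, 17 were called lower (2.39%), MAGEA1 among them, and 0 higher. Over all 21448 probe sets 94 were called lower (0.438%) and 28 higher. The larger share of lower calls on chromosome X was not tested.

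**Figure D3:**
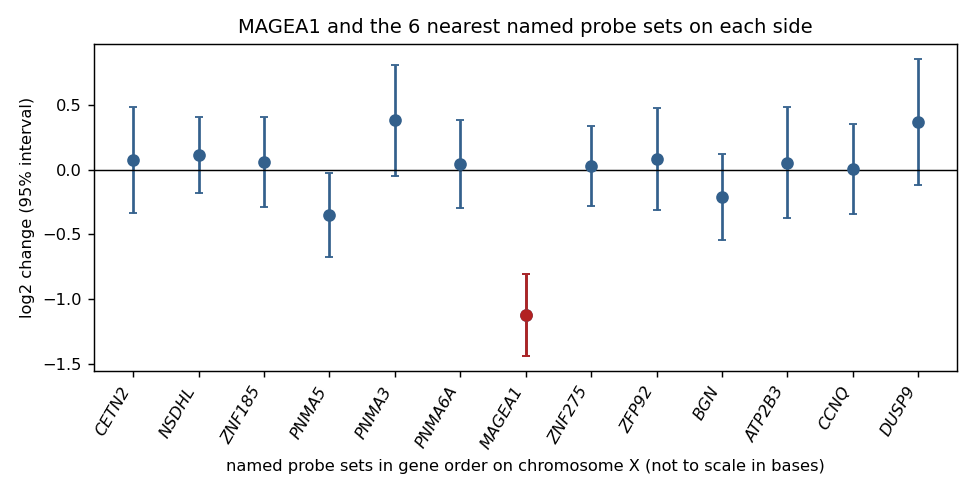
Log2 change with its 95% interval for MAGEA1 and for the 6 nearest named probe sets on each side in gene order along chromosome X, evenly spaced rather than to scale. MAGEA1 lies at -1.12, and its neighbours lie between -0.35 and 0.38.

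The MAGEB genes lie on the short arm of chromosome X. MAGEB16 read 5.46, 5.65 and 5.99 with the control vector and 4.36, 5 and 5.01 with the miR-543 vector, so all its miR-543 arrays were lower. Means were 5.70 ± 0.27 and 4.79 ± 0.37 (SD, n = 3), a log2 change of -0.91 (SE 0.21, 95% interval -1.37 to -0.45). It had the second largest change of the family and did not pass (limma adjusted p = 0.123). Both means were lower than the array medians, and since its signal was not set against background, the size of the difference is uncertain. MAGEB2, a cancer-testis antigen that binds RNA, read 12.07, 12.50 and 12.26, and then 11.91, 11.80 and 12.00, without overlap. Its log2 change was -0.37 (SE 0.15, limma adjusted p = 0.429).

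The other MAGEB members, MAGEB3, MAGEB5, MAGEB6, MAGEB10, MAGEB17 and MAGEB18, had overlapping groups. Their log2 changes ran from -0.34 for MAGEB10 to 0.34 for MAGEB5, and 5 of the 6 were positive. MAGEB18, which partners the ligase LNX1, had means of 3.05 and 3.07. None of the 6 had a mean over all arrays above the array medians.

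The MAGEC genes form a group of their own on the long arm of chromosome X. MAGEC1, a cancer-testis antigen known from myeloma, read 11.09, 11.20 and 11.29 with the control vector and 10.86, 10.84 and 10.82 with the miR-543 vector. Its groups did not overlap, with means of 11.2 ± 0.10 and 10.8 ± 0.020 (SD, n = 3), a log2 change of -0.35 (SE 0.13) and no call (limma adjusted p = 0.391). MAGEC2, which binds TRIM28, read 13.17, 13.24 and 13.34, and then 13.05, 13.15 and 13.08. These groups were also separate, though narrowly, and the log2 change of -0.16 was not called (95% interval -0.45 to 0.14, limma adjusted p = 0.741). MAGEC3 had means of 3.43 and 3.18, overlapping groups and a log2 change of -0.25.

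Among the widely expressed members, MAGED1 is an adaptor that binds the neurotrophin receptor NGFR and the ligase PJA1. It read 7.32, 7.51 and 7.17 with the control vector and 6.95, 6.83 and 6.36 with the miR-543 vector, without overlap. Means were 7.33 ± 0.17 and 6.71 ± 0.31 (SD, n = 3), a log2 change of -0.62 (SE 0.18, 95% interval -1.02 to -0.22) that did not pass (limma adjusted p = 0.253). MAGED2, whose loss in the kidney causes transient antenatal Bartter syndrome, read 8.34, 8.38 and 8.12, and then 8.31, 8.44 and 8.83. Its groups overlapped, with a log2 change of 0.25 (95% interval -0.13 to 0.62). MAGED4B, with a near copy in MAGED4, had means of 3.01 and 3.19.

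NDN encodes necdin, a growth suppressor of neurons that binds E2F1. It read 4.90, 4.72 and 4.80 with the control vector and 4.42, 4.07 and 4.15 with the miR-543 vector, again without overlap. Means were 4.81 ± 0.090 and 4.21 ± 0.18 (SD, n = 3), and the log2 change of -0.59 (SE 0.15, 95% interval -0.92 to -0.27) was not called (limma adjusted p = 0.165). This is also a dim probe set, with both means lower than the array medians. MAGEL2, its imprinted neighbour and a partner of TRIM27 and USP7 in retrograde transport, had means of 3.72 and 3.62, overlapping groups and a log2 change of -0.10. Of 5 listed imprinted neighbours 3 were measured, and MKRN3, UBE3A and NPAP1 had log2 changes of -0.25, -0.16 and 0.08, with 0 calls and 0 unadjusted p-values under 0.05.

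MAGEF1, a partner of the ligase NSMCE1 that directs it to the iron-sulfur assembly factor MMS19, read 11.20, 11.12 and 10.70, and then 10.86, 10.95 and 10.78. MAGEH1 read 6.56, 6.64 and 6.19, and then 6.36, 6.68 and 6.79. In both genes the groups overlapped, with log2 changes of -0.14 (95% interval -0.51 to 0.22) and 0.15 (-0.24 to 0.53). MAGEE1, which binds dystrobrevin, and MAGEE2 had log2 changes of -0.24 and 0.04 at means of 4.13 and 2.42 with the control vector. TRO, a further gene of this domain that the symbol rule does not take in, had means of 3.81 and 3.72.

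The ubiquitin ligases and complexes that MAGE proteins join were all measured, 19 of 19, and limma called 0 in either direction, with 1 at an unadjusted p under 0.05, beside 10.6% of all probe sets (8 changes positive, 11 negative, median -0.02). TRIM28, the ligase of MAGEA3, MAGEA6 and MAGEC2, had a log2 change of 0.003, and TRIM27, the ligase of MAGEL2, one of 0.03. The smallest unadjusted p-values belonged to WASHC1, USP7, SMC6 and PJA2. WASHC1, a subunit of the actin-regulating WASH complex with near copies that probes may share, had a log2 change of 0.36 (limma adjusted p = 0.385). USP7, a deubiquitinase, SMC6, of the complex that holds NSMCE1 and NSMCE3, and the ligase PJA2 had log2 changes of -0.26, -0.28 and -0.24. Of 8 binding partners and substrates 6 were measured, 0 were called and 1 had an unadjusted p under 0.05, again beside 10.6% of all probe sets. Those with the smallest p were the AMPK subunit PRKAA1, with a log2 change of -0.33 (limma adjusted p = 0.439), E2F1 with 0.38, PCNA with 0.17 and DLX5 with -0.11.

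Regulators of germline gene promoters were measured for 27 of 28 genes. Of these 1 was called lower and 0 higher, beside 0.438% of all probe sets called lower. An unadjusted p under 0.05 was found for 5, beside 10.6% of all probe sets. Of the 27 changes 14 were positive and 13 negative (median 0.003). ETS1, a founding member of the ETS family of transcription factors, read 7.16, 7.02 and 6.97 with the control vector and 6.11, 6.24 and 6.10 with the miR-543 vector. These groups did not overlap, and ETS1 fell by 0.90 (SE 0.14) from 7.05 ± 0.098 to 6.15 ± 0.078 (SD, n = 3; limma adjusted p = 0.019). Its call was lost without any 1 of the 6 arrays, with limma adjusted p-values from 0.0536 without miR-543 replicate 2 to 0.108 without control replicate 1. Whether ETS1 bears on the MAGE genes was not tested.

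ETS2 read 9.15, 9.23 and 8.96, and then 8.70, 8.64 and 8.77, without overlap, and its log2 change of -0.41 was not called (limma adjusted p = 0.333). TET1, a demethylating enzyme named in the series title, had a log2 change of -0.50 (95% interval -0.83 to -0.18, limma adjusted p = 0.247). MAX, a partner of MGA in a repressor of germline genes, had one of -0.34 (limma adjusted p = 0.427). Neither was called, and both had all miR-543 arrays below the control arrays. The fifth gene with an unadjusted p under 0.05, the histone methyltransferase SETDB1, had a positive log2 change of 0.29, with all its miR-543 arrays above the control arrays and no call (limma adjusted p = 0.468). CTCFL, a germline paralog of CTCF and itself a cancer-testis gene, had a log2 change of 0.10 (95% interval -0.21 to 0.41). For the methyltransferases DNMT1, DNMT3A and DNMT3B the log2 changes were -0.25, 0.23 and -0.02, and for the methyltransferase cofactor UHRF1 0.02. The other TET enzymes, TET2 and TET3, had overlapping groups and log2 changes of -0.08 and 0.08. DNA methylation at the MAGE promoters was not analysed here.

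**Figure D4:**
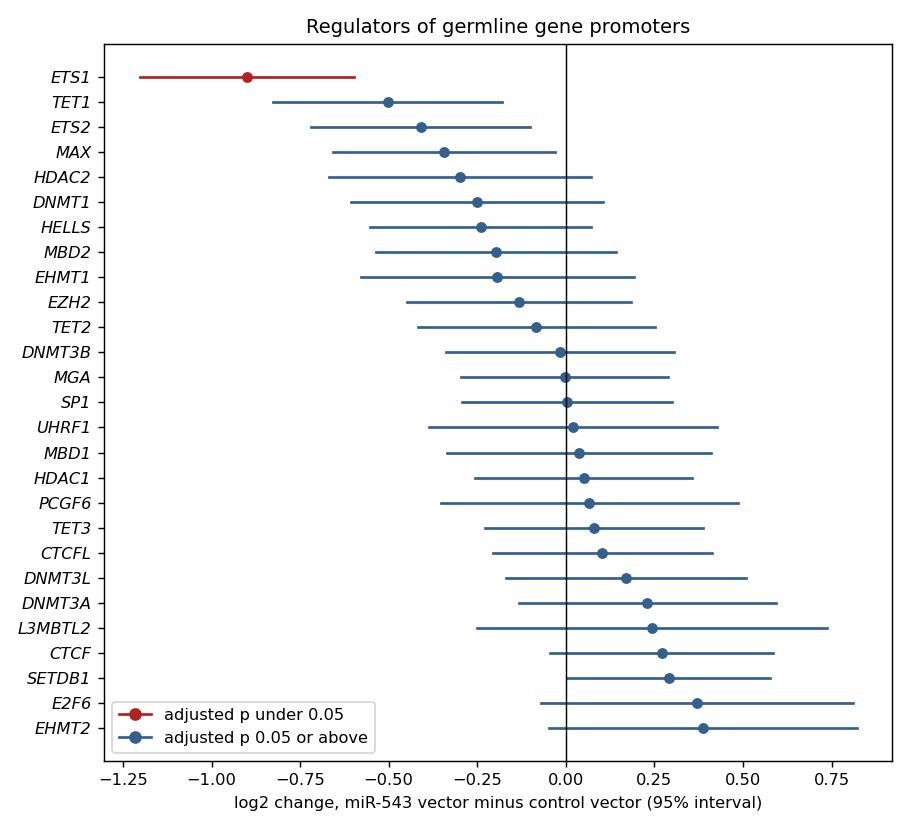
Log2 change, miR-543 vector minus control vector, with its 95% interval from limma for the 27 measured regulators of germline gene promoters, sorted by change. ETS1, at -0.90, is the called gene, and the others lie between -0.50 (TET1) and 0.39 (EHMT2).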

How the data were processed

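The deposited values are log2 signals per probe set, 1 column for each of the 6 arrays and 0 columns of other samples. Per the submitters' processing notes the authors used Transcriptome Analysis Console 4.0 and RMA, which removes background, brings arrays to a common scale and combines the probes of a set. Which RMA variant, annotation release and genome build they used is not given in the sources used here. Symbols came from the platform annotation, with 1 symbol for 17709 probe sets, several for 0 and none for 3739, and chromosomes and gene order from the RefSeq gene table of GRCh38.p14. Gene coordinates are therefore not printed, and those of promoter windows and miR-543 are RefSeq's.

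All 21448 probe sets were fitted with limma 3.58.1 in R 4.3.3 (lmFit and eBayes without trend, no block, filter or weights), two-sided, with Benjamini-Hochberg adjustment. SE is the moderated standard error. The number of arrays limits the precision. On simulated data of this comparison with 21448 probe sets, limma recovered 4%, 70%, 94% and 100% of 50 probe sets each at log2 changes of 0.5, 1, 1.5 and 2. All sizes were simulated together, with a spread drawn without regard to signal level. Recovery of dim or bright members may therefore differ from these figures.

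Members given array by array were those called, those with an unadjusted p under 0.05, those with a mean above the median of the arrays, and those with separate groups (16 of 30). Members, lists and rules were chosen with earlier results of these data known. Of each gene list the 4 genes with the smallest p are named. TRIM28, TRIM27, CTCFL, SETDB1, EHMT2, DNMT1, DNMT3A, DNMT3B, UHRF1, TET2, TET3 and the marker genes were named beyond that rule, after their values were seen.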

Additional observations from a re-analysis of the deposited data

How the results depend on the processing

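MAGEA1 had a negative log2 change under each of its 15 alternatives, between -1.20 and -1.06 when 1 array at a time was left out, and kept its call except without control replicate 1 and against a minimum log2 change of 0.5 (-1.12). That test left 12 calls in all and 0 among the MAGE members and the promoter regulators. It is stricter by construction. The trend and robust settings gave 252 calls in all. Leaving out 1 array at a time gave 34 to 59 calls in all, 0 to 1 among the members and 0 among the promoter regulators, with fewer arrays. Same-numbered arrays deviated from their group means with correlations of 0.09, -0.05 and 0.02, so the numbers were not taken as pairs. A replicate block gave 71 calls in all, 0 promoter regulators, and MAGEA1 called (limma adjusted p = 0.0354). With 1 array left out, MAGEA8 ranged from -0.20 to 0.072, turning positive without control replicate 1 and without miR-543 replicate 3 (0.043). MAGEA3 ranged from -0.25 to 0.015, turning positive without miR-543 replicate 2. The cause was not tested. None of the other 15 members given array by array was called under any alternative run. Leaving out antisense RNAs and pseudogenes changed nothing because the rule found 0 of them on the array. Detection calls were not used, so dim members have no known signal over background.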
